A study of Mus musculus with 27 samples.

Results

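Nr4a1, Nr4a2 and Nr4a3 are the 3 genes of the NR4A family of nuclear receptors, and their chromatin was followed in mouse Kupffer cells, which are the macrophages that reside in the liver. The genes were chosen by name, and their regions by position: 34 of the 70300 windows in which the histone mark H3K27ac was counted were assigned to a member (15 to Nr4a1, 9 to Nr4a2 and 10 to Nr4a3), which makes them 3 of the 16038 genes with a window. Reproducible binding sites of 3 proteins were taken from 6 lists wherever they lay between the outermost windows of a gene or within 5000 bp beyond them. All cells came from C57BL/6J mice and were sorted as F4/80-Hi Tim4-Pos Kupffer cells, either from animals given control diet or from animals given NASH diet, which is used to model non-alcoholic steatohepatitis, the inflamed stage of fatty liver. In both diets the perfusion and digestion of the liver were done in the presence of flavopiridol, an inhibitor of transcription elongation, per the labels. ChIP-seq (sequencing of DNA pulled down with an antibody to a protein or histone mark) gave 2 H3K27ac libraries per diet and 2 libraries per diet for LXR, ATF3 and P300. The labels do not say whether these libraries came from separate animals, so the p-values measure the spread between libraries, which may be technical.

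NR4A receptors are immediate-early genes: they are transcribed within minutes of a stimulus, in macrophages as in neurons and T cells, and they act without a known hormone ligand, as orphan receptors. Their proteins bind the NBRE, a nuclear receptor half-site with an extended end, as monomers, and Nr4a1 and Nr4a2 also bind DNA together with the retinoid X receptors. Nr4a1 is best known in myeloid cells for its need in the patrolling, Ly6C-low monocytes, and all of the family is known to restrain inflammatory gene expression in macrophages. LXR is the oxysterol receptor that Kupffer cells need to keep their identity, ATF3 is a stress-induced repressor and activator of the CREB/ATF family, itself an immediate-early gene, and P300 is an acetyltransferase that writes H3K27ac at active enhancers.

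The promoters are shown first because the best known route to these genes runs through the cyclic AMP response element (CRE), the site of CREB and ATF proteins, and because ATF3 was profiled here. The 250 bases before each RefSeq start (GRCm38.p6, the build also called mm10) are printed 5′ to 3′ on the strand of the gene, and all 3 members were found in the RefSeq table. Capitals mark CRE half-sites, TGACG or its reverse complement CGTCA. The stretches are chr15:101266596-101266845 on the plus strand for Nr4a1, chr2:57124004-57124253 on the minus strand for Nr4a2 and chr4:48045055-48045304 on the plus strand for Nr4a3.
Nr4a1: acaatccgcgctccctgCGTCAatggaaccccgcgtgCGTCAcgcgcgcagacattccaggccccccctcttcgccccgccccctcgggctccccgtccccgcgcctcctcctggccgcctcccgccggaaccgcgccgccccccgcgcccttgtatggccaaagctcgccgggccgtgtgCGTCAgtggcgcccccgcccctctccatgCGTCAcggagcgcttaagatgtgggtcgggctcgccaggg
Nr4a2: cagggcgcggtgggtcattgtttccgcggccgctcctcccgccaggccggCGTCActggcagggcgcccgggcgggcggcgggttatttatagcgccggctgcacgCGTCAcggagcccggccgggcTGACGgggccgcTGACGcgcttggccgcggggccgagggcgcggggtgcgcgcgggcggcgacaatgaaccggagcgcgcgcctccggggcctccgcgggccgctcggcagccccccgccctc
Nr4a3: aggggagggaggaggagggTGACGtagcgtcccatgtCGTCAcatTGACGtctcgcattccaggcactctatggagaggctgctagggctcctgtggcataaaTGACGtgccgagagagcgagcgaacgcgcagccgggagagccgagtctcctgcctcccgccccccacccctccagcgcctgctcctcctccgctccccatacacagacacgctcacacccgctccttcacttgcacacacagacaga

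Each of the 3 promoters held 4 CRE half-sites. Of 32851 mouse promoters of the same length, 17.8% held at least 1 half-site and 0.137% (45 promoters) held 4 or more. The half-sites of Nr4a1 all lay in the longer word TGACGCA, read on the other strand as TGCGTCA, which contains the half-site. That word occurred at least once in 1.75% of promoters, and the Nr4a1 promoter, with 4, was the only 1 of the 32851 with 3 or more. No match to the full CRE (TGACGTCA, in 1.55% of promoters), the AP-1 site (TGANTCA, 6.75%), the NBRE (AAAGGTCA, 1.34%), the CArG box bound by SRF (1.47%) or the DR4 site of LXR (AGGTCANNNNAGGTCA, 0.0152%) was found on either strand in the 3 stretches. That says only that these letters are not in these windows. The promoters were rich in G and C, at 74.4% for Nr4a1, 80.0% for Nr4a2 and 63.6% for Nr4a3, against a median of 52.4% over all promoters.

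Listed sites of the 3 factors lay on these half-sites in part. At Nr4a2, the ATF3 site of the NASH list (chr2:57124079-57124330) covered 4 of 4 half-sites, as did the LXR site of the control list and the P300 sites of both lists. At Nr4a3, the ATF3 site of the NASH list (chr4:48044935-48045172) covered 4 of 4 half-sites, the P300 site of the NASH list 3 of 4 and the LXR site of the NASH list 2 of 4. At Nr4a1, neither ATF3 list had a site in the printed stretch, while the LXR sites covered 2 (control list) and 3 (NASH list) of 4, and the P300 sites 1 and 2. So ATF3 was listed over the CRE half-sites of Nr4a2 and Nr4a3 in the NASH list alone, as were 65.7% of all ATF3 sites of that list, and over those of Nr4a1 in neither list. Both promoter sites ranked low in the list, with reproducibility scores of 591 at Nr4a2 (above 5.22% of the list) and 720 at Nr4a3 (above 16.2%). At a stricter reproducibility threshold (IDR of at most 0.01, a score of 830) neither is listed, and none of the 3 promoters then holds an ATF3 site. A match is a description of the letters under a site, not evidence of which factor bound them.

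**Figure D1:**
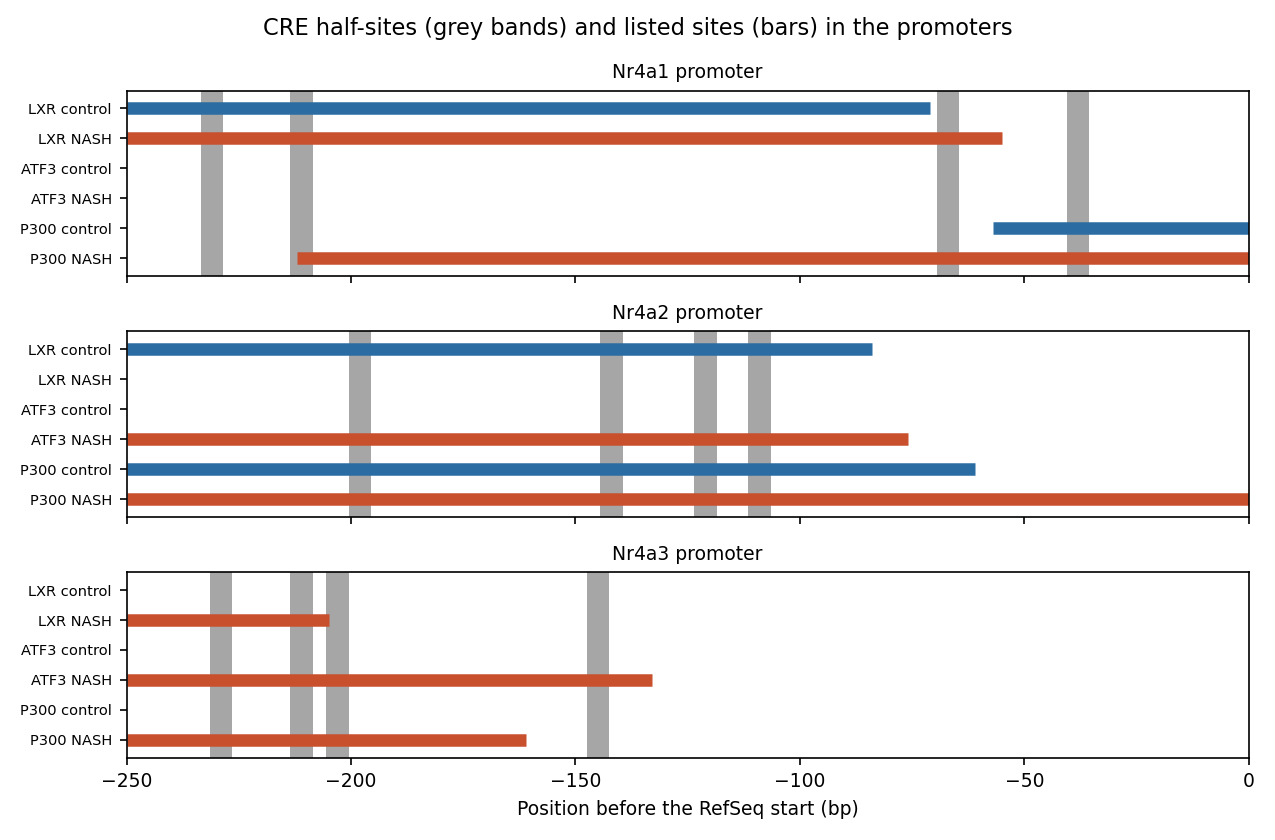
The horizontal axis gives the position before the RefSeq start in bp, the 6 rows of each panel the control (blue) and NASH (orange) lists of LXR, ATF3 and P300, and the grey bands the CRE half-sites. Each panel has 4 bands, and the ATF3 rows are empty for Nr4a1 and filled only for the NASH list for Nr4a2 and Nr4a3.

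H3K27ac values are tags per window, scaled by the authors to 10000000 tags per library and here called normalised tags. Library totals ran from 9468035 to 22615879 tags, control library 1 being the shallowest, and 7.91% to 9.60% of them lay in the windows, so 1 tag was worth 0.442 to 1.06 normalised tags. A count of 0 allows up to 3 tags, or 1.33 to 3.17 normalised tags, which covers counting error only. Across the 11593 genes that passed the filter on low values, the median log2 change from control to NASH was -0.29, and across the 35947 windows -0.26. Trimmed mean (TMM) scaling, which assumes that most windows do not change, moved both medians to within 0.02 of 0, so every change below is given relative to the median, while the calls were made before that subtraction. Summed over 6 Kupffer cell markers, 4 of which passed as lower, H3K27ac was 1432 and 1407 normalised tags in the control libraries and 834 and 794 in the NASH libraries, the markers of neutrophils summed to at most 3.74 in any library, and no stellate cell marker was in the table. Monocyte markers summed to 305 and 306 against 340 and 361, with none called. Of 4 T cell markers 2 were in the table and summed to 6.34 and 3.98 against 18.7 and 22.9, and the 1 that was tested was raised. The sums of B cell, cholangiocyte, hepatocyte, endothelial and dendritic cell markers lay between 9.36 and 170 in the 4 libraries. The part of these cells in the results below was not tested. Fewer cells of a type and less signal per cell cannot be told apart in such bulk libraries.

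The 3 genes went 3 ways between the diets. Summed over its 15 windows, Nr4a1 had 277 and 219 normalised tags in the control libraries and 115 and 108 in the NASH libraries (means 248 ± 40.9 and 111 ± 4.60, SD, n = 2 per diet), so both NASH libraries lay far below both control libraries. H3K27ac at Nr4a1 fell by 0.85 on the log2 scale relative to the median gene (SE 0.17, limma adjusted p = 0.000148). Summed over its 9 windows, Nr4a2 had 64.4 and 34.5 in the control libraries and 102 and 110 in the NASH libraries (49.5 ± 21.2 and 106 ± 5.18, SD, n = 2 per diet). Both NASH libraries were above both control libraries, and Nr4a2 rose by 1.44 relative to the median (SE 0.26, limma adjusted p = 0.0053). Summed over its 10 windows, Nr4a3 had 294 and 280 in the control libraries and 285 and 297 in the NASH libraries (287 ± 9.72 and 291 ± 8.20, SD, n = 2 per diet). The diets overlapped at Nr4a3, and its relative change of 0.31 (SE 0.14, limma adjusted p = 0.934) did not pass.

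Over all genes tested, 2.89% were called raised and 11.0% lowered, or 6.94% and 6.15% after TMM scaling. With TMM the 3 genes kept these calls: Nr4a1 was lowered (-0.84, limma adjusted p = 0.000419), Nr4a2 raised (1.44, 0.000102) and Nr4a3 not called (0.32, 0.187, unadjusted p = 0.0472). Leaving out any 1 library kept Nr4a1 lowered, with relative changes between -0.91 and -0.79 and limma adjusted p between 5.85e-07 and 0.000717. The call of Nr4a2 was lost without NASH library 2 (1.31, limma adjusted p = 0.0603).

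Per kilobase of window, so that the genes can be set side by side, Nr4a3 carried the highest level in each of the 4 libraries. Its level was 137 and 130 normalised tags per kb in the control libraries and 133 and 138 in the NASH libraries. Nr4a1 stood second in the control libraries at 82.9 and 65.6, and last in the NASH libraries at 34.3 and 32.4. Nr4a2 was last in the control libraries at 33.9 and 18.1 and second in the NASH libraries at 53.9 and 57.7. The order of Nr4a1 and Nr4a2 was thus exchanged between the diets, and the values of these neighbours did not overlap within either diet. Of the summed H3K27ac of the family, Nr4a1 took 43.6% and 41.0% in the control libraries and 22.8% and 21% in the NASH libraries, Nr4a2 went from 10.1% and 6.47% to 20.4% and 21.3%, and Nr4a3 from 46.3% and 52.5% to 56.8% and 57.7%.

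**Figure D2:**
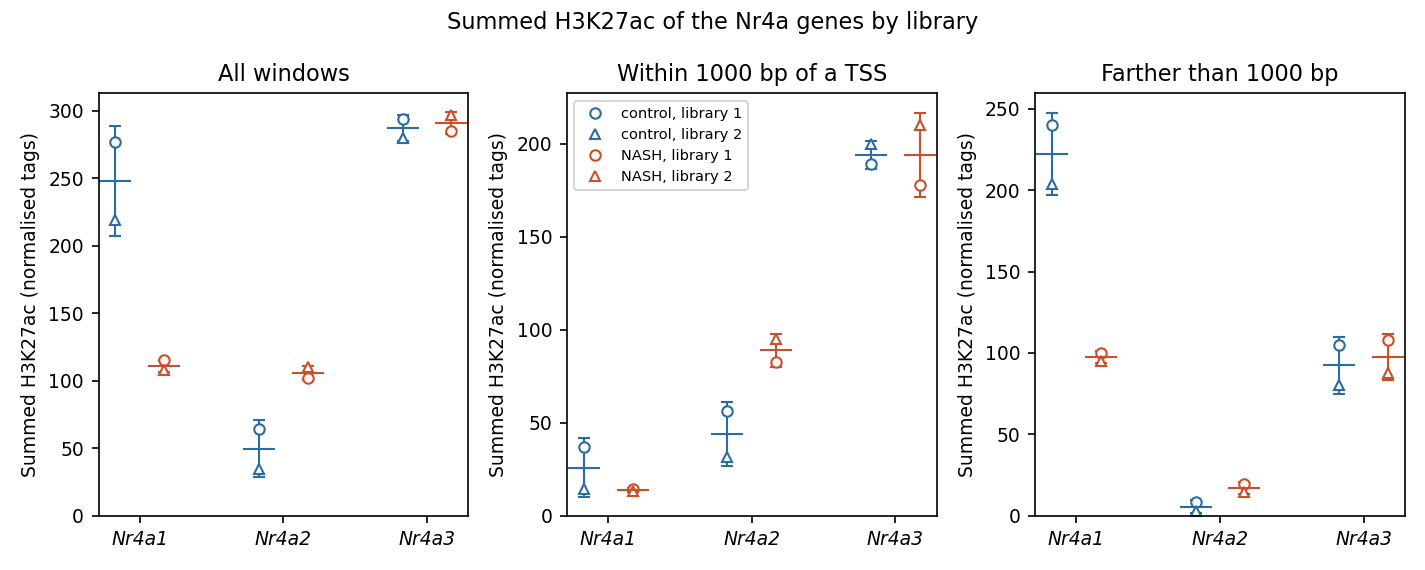
Summed H3K27ac in normalised tags (vertical axis) for each gene, over all its windows, over those within 1000 bp of an annotated start and over those farther away, with 1 point per library and the mean ± SD of the 2 libraries per diet. The NASH points of Nr4a1 lie below the control points in all panels, but within 1000 bp control library 2 (14.6) nearly meets NASH library 1 (14.4). The NASH points of Nr4a2 lie above the control points in all panels, and those of Nr4a3 overlap with them in all panels.

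H3K27ac was counted only inside windows, which had a median width of 204 bp over all 70300, so signal between windows is not seen. The counted H3K27ac of Nr4a1 lay mostly in windows upstream of its annotated start, not in those within 1000 bp of it. Of the 15 windows, 12 lay farther than 1000 bp from the annotated start, all of them upstream and annotated as intergenic by HOMER. Of these 12, 7 fell inside the longer RefSeq span of Nr4a1 (chr15:101253902-101274795), which reaches upstream of the annotated start. The window at -12767 bp (chr15:101253960-101254199) lay at the upstream end of that span, so distal here means far from the annotated start only. The 12 distal windows summed to 240 and 204 normalised tags in the control libraries and 100 and 95.2 in the NASH libraries. This distal sum fell by 0.91 relative to the median (SE 0.15, limma adjusted p = 3.64e-06), where 19.7% of genes with distal windows were called lowered and 6.47% raised. The 3 windows within 1000 bp held 37.0 and 14.6 in the control libraries and 14.4 and 13.0 in the NASH libraries. There the control libraries differed more from each other than control library 2 did from the NASH libraries, and the relative change of -0.44 did not pass (limma adjusted p = 0.321). This promoter value rested on control library 1: without it the relative change was 0.08 (limma adjusted p = 0.963), and without control library 2 it was -0.94 and passed (0.0166).

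Window by window, 14 of the 15 Nr4a1 windows passed the filter, and 11 of those 14 had both NASH libraries below both control libraries, against 38.1% of all tested windows. None had both above, against 15.0%. Among the 11, the windows at -18682, -10655, -8281 and -866 bp would not have passed the filter on their NASH libraries alone. Their direction is thus in part a result of the filter. The relative changes of the 14 ranged from -1.56 to 0.12 with a median of -0.87. The highest Nr4a1 window in the NASH libraries, and in control library 1, lay 12767 bp upstream (41.2 and 24.8 normalised tags, then 16.0 and 14.0), and its change of -0.78 did not pass (limma adjusted p = 0.07). The window nearest the start, at -57 bp, was low in every library, with 9.51 and 4.86 in control and 8.0 and 4.16 in NASH, and the diets overlapped there (0.06, limma adjusted p = 0.857). The other proximal windows did not pass either: at -866 bp the values were 20.1 and 6.19, then 4.27 and 2.08, and at 877 bp, in intron 1 of 6, they were 7.39 and 3.54, then 2.13 and 6.76.

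Across windows, 3 of the Nr4a1 windows passed as lowered and none as raised, where a window needed a log2 change of at least 1 besides an adjusted p under 0.05 to be called, and where 4.59% of all tested windows were lowered and 2.00% raised. The first (chr15:101247273-101247473, 19473 bp upstream) had 27.5 and 34.5 normalised tags in control and 12.8 and 12.5 in NASH. It fell by 0.96 relative to the median (SE 0.33, limma adjusted p = 0.0335). The second (chr15:101256533-101256733, 10213 bp upstream) had 24.3 and 26.1, then 11.7 and 8.32, and fell by 1.01 (SE 0.37, limma adjusted p = 0.0435). The third (chr15:101258465-101258665, 8281 bp upstream) had 16.9 and 11.1, then 3.20 and 3.12, and fell by 1.56 (SE 0.50, limma adjusted p = 0.0327). In all 3, both NASH libraries were below both control libraries, though the third passed the filter on low values through the control libraries only.

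The calls on single Nr4a1 windows were less stable than that on their sum. With TMM, under which 2.50% of windows were lowered and 3.31% raised, none of the 3 passed (limma adjusted p = 0.092, 0.0982 and 0.057). Without control library 2 or either NASH library the first was lost (limma adjusted p = 0.112, 0.086 and 0.155), without either control library or NASH library 2 the second (0.0836, 0.0822 and 0.303), and without control library 1 or either NASH library the third (0.251, 0.0729 and 0.124).

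The 3 called Nr4a1 windows shared 2 features. Each came from the control list of ATAC-seq peaks (open chromatin) alone, as did 4 of the 15 Nr4a1 windows, the fourth being that at -866 bp, and the other 11 came from both lists. Of all 70300 windows, 28.2% were on the control list alone. Of the 7972 such windows tested, 10.8% were called lowered, against 4.59% of all tested windows, so this feature is not independent of the call. In addition, none of the 3 held a site of LXR, ATF3 or P300 in either diet, while 11 of the 15 Nr4a1 windows held at least 1. Of all 70300 windows, 52.7% held an LXR site of the control list and 57.7% one of the NASH list. The 10 tested Nr4a1 windows with a site had a median relative change of -0.76, and the 4 without had a median of -0.98. Their ranges of -1.35 to 0.12 and -1.56 to -0.07 overlap.

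The counted H3K27ac of Nr4a2 was concentrated near its upstream start. The window 293 bp past that start, in intron 1 of 7 (chr2:57123590-57123830), was the highest in every library, with 40.1 and 25.2 normalised tags in control and 64.0 and 81.6 in NASH. Both NASH libraries lay above both control libraries, and the window rose by 1.42 relative to the median (SE 0.28, limma adjusted p = 0.0165). It passed with TMM too (limma adjusted p = 0.00501). The call was lost without NASH library 2 (limma adjusted p = 0.193) and without control library 2, where the adjusted p was 0.0495 but the log2 change before subtraction was under 1. The window over the promoter itself, at -173 bp, was low, at 4.22 and 2.65 in control and 2.13 and 1.56 in NASH, and was not tested because it did not pass the filter.

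The second called Nr4a2 window also lay in intron 1 (chr2:57116720-57116925), 1784 bp before a second annotated start inside the gene and about 7.2 kb past the upstream one. It had 8.45 and 0 normalised tags in control and 18.7 and 13.5 in NASH. It rose by 2.72 (SE 0.73, limma adjusted p = 0.048, and 0.0308 with TMM), a fitted size that depends on the added pseudocount of 1 because control library 2 had no tag there. That call was lost without control library 2 (1.17, limma adjusted p = 0.267) and without NASH library 1 (0.172) or 2 (0.0858). Another window, 353 bp before the second start, had 1.06 and 1.33 in control and 9.07 and 5.20 in NASH and passed only with TMM (2.04, limma adjusted p = 0.0466, against 0.0725 without). So each of the 3 Nr4a2 windows that passed the filter had both NASH libraries above both control libraries, against 15.0% of all tested windows. Of all tested windows, 2.00% were called raised, or 3.31% with TMM. The windows 1784 and 353 bp before the second start would not have passed the filter on their control libraries alone. Their direction is thus in part a result of the filter. The 6 windows that did not pass held at most 6.34 normalised tags in any library. The Nr4a2 window nearest an annotated start, at 48 bp, was among these 6, with 6.34 and 2.65 in control and 4.27 and 3.64 in NASH.

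The proximal and distal sums of Nr4a2 both rose, but each mostly repeats 1 called window, that at 293 bp and that at -1784 bp. Windows within 1000 bp of a start summed to 56.0 and 31.8 in control and 82.7 and 95.2 in NASH. That sum rose by 1.34 (limma adjusted p = 0.0262), where 0.937% of genes were called raised. Windows farther away summed to 8.45 and 2.65, then 19.7 and 14.6, and rose by 1.87 (SE 0.49, limma adjusted p = 0.0159). Of genes with distal windows, 6.47% were called raised. This distal sum held 8 and 6 tags in control and 37 and 28 in NASH. It would not have passed the filter on its control libraries alone, so its direction is in part a result of the filter. The proximal call was lost without control library 2 (limma adjusted p = 0.115), NASH library 1 (0.0864) or NASH library 2 (0.426), and the distal call without control library 2 (0.157) or NASH library 1 (0.152).

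Nr4a3 held the strongest counted H3K27ac of the family and none of its windows was called. Its highest window, 549 bp upstream of the start (chr4:48044656-48044856), had 129 and 137 normalised tags in control and 128 and 158 in NASH. The diets overlapped there and the relative change was 0.36 (SE 0.21, limma adjusted p = 0.818). Farther upstream, the windows at -2392 bp (64.4 and 51.7, then 54.9 and 41.6) and -976 bp (45.4 and 52.6, then 38.4 and 40.0) had relative changes of -0.01 and -0.05. The window nearest the start, at -184 bp, had 14.8 and 10.6, then 11.2 and 12.0 (0.15). Of the 5 tested Nr4a3 windows, the one at -1846 bp moved most, from 31.7 and 23.4 in control to 46.4 and 40.6 in NASH, and did not pass (0.91, limma adjusted p = 0.172, or 0.0521 with TMM). The Nr4a3 windows that the filter removed, 5 in all, held at most 4.22 in any library.

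Neither the proximal nor the distal sum of Nr4a3 was called. The proximal sum was 189 and 200 in control and 178 and 210 in NASH (0.28, limma adjusted p = 0.98). The distal sum was 105 and 80.0, then 108 and 87.4 (0.35, limma adjusted p = 0.785). In both sums the libraries of the 2 diets overlapped.

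**Figure D3:**
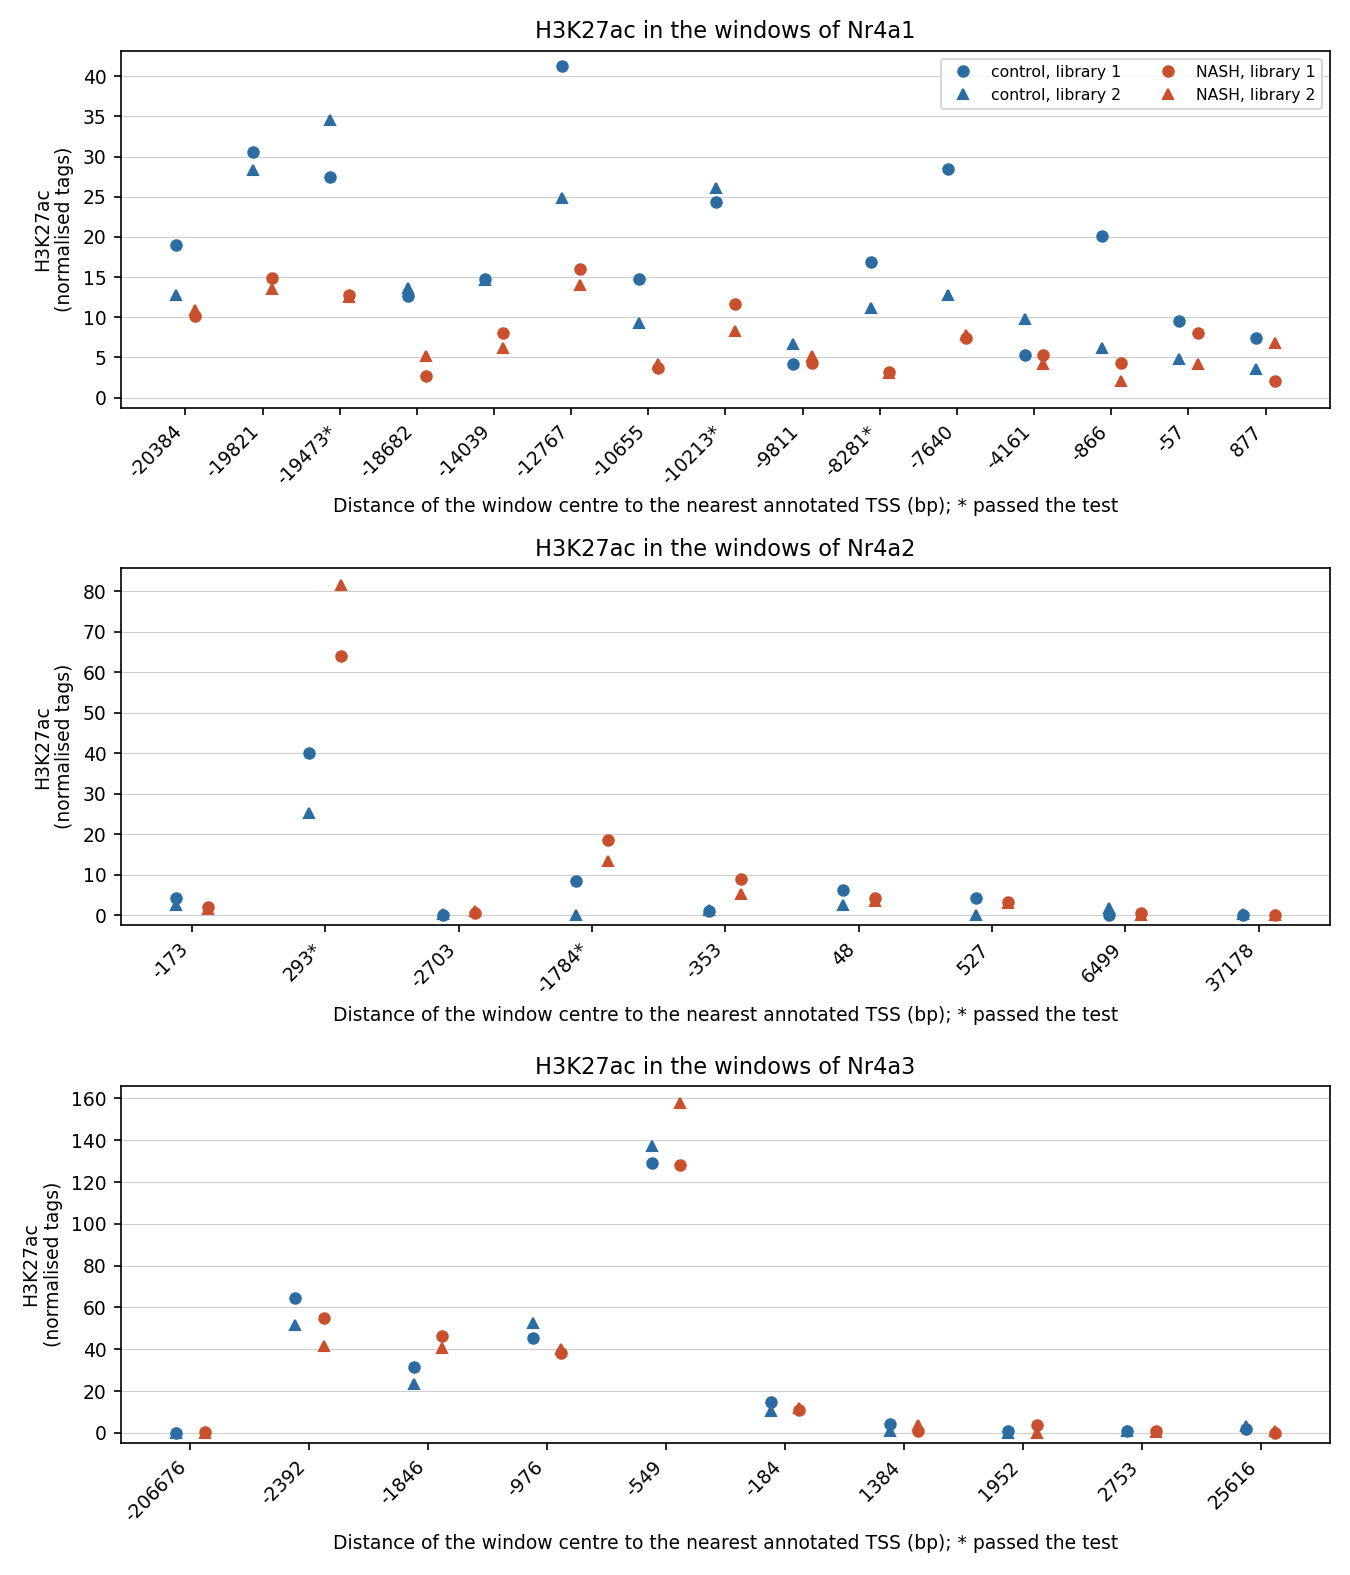
Each panel gives 1 gene and each column 1 window in gene order, with its distance to the nearest annotated start in bp, and the vertical axis is H3K27ac in normalised tags with 1 point per library. Upstream Nr4a1 windows are lower in NASH (orange) than in control (blue) at 11 of 15 positions, the Nr4a2 window at 293 bp goes from 40.1 and 25.2 to 64.0 and 81.6, and the Nr4a3 window at -549 bp is above 120 in every library.

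The binding sites of the 3 factors at Nr4a1 were mostly listed in both diets. Sites that overlapped each other by at least 1 bp were joined into elements, which gave 13 elements at Nr4a1, 2 at Nr4a2 and 6 at Nr4a3. At Nr4a1, LXR had 11 sites in each list, of which 10 were shared, 1 was found in control alone and 1 in NASH alone. ATF3 had 6 sites in control and 8 in NASH, 6 shared and 2 in NASH alone, and P300 had 8 and 9, with 7 shared, 1 in control alone and 2 in NASH alone. Over the whole lists, sites with no partner in the other diet made up 17.8% of the control list and 29.3% of the NASH list for LXR, 17.4% and 65.7% for ATF3, and 10.1% and 56.7% for P300. The list lengths differed, at 44463 and 51709 sites for LXR, 16109 and 38828 for ATF3, and 25219 and 52628 for P300, so a site listed in 1 diet alone need not differ in binding.

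Of the 13 Nr4a1 elements, 4 were in all 6 lists. They lay 22.7, 14.1, 7.6 and 4.2 kb upstream of the start, the first of them in a window that HOMER assigned to A330009N23Rik. In the control list of LXR that first site (chr15:101244069-101244300) had an enrichment score above 94.1% of the list, and in the P300 lists the site at 14.1 kb stood above 93.4% (control) and 92.7% (NASH). These scores are the authors' own and rank sites within a list only. The windows of these shared elements, at -14039 bp (14.8 and 14.6 normalised tags in control, 8.0 and 6.24 in NASH) and -7640 bp (28.5 and 12.8, then 7.47 and 7.80), had relative changes in H3K27ac of -0.70 and -0.97, neither of which passed. That at -4161 bp (5.28 and 9.73, then 5.33 and 4.16) did not pass the filter. The 2 ATF3 sites of the NASH list alone lay in the windows at -12767 and -10655 bp, where LXR was listed in both diets. The 2 P300 sites of the NASH list alone lay in those at -12767 and -9811 bp. Over the Nr4a1 promoter, LXR and P300 were listed in both diets.

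At Nr4a2 few sites were listed, and most of them in 1 diet alone. So were 65.7% of ATF3 and 56.7% of P300 sites of the whole NASH lists, and 17.8% of LXR sites of the control list. LXR had 2 sites in the control list and none in the NASH list, ATF3 had none in control and 2 in NASH, and P300 had 1 in control and 2 in NASH, with 1 shared. All of these sites fell on the same 2 elements, one at the upstream promoter and one in intron 1, 7.2 kb past the start (chr2:57116653-57117031), which overlaps the raised window at -1784 bp. In intron 1 the ATF3 site (chr2:57116693-57116969) had the highest reproducibility score of its list, as did 66.1% of that list, and the P300 site of the NASH list lay above 32.6% of its list by enrichment. The LXR site there ranked low in the control list, above 6.07% of it by enrichment. At the promoter, the LXR site of the control list stood above 59.4% of its list. The ATF3 site of the NASH list stood above 5.22% of its list by the reproducibility score. The P300 site stood above 4.12% of the control list and 65.3% of the NASH list by enrichment. At a reproducibility score of at least 830, 1 LXR site (control list), 1 ATF3 site and 2 P300 sites (NASH lists) were left.

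At Nr4a3, LXR had 1 site in the control list and 4 in the NASH list, of which 1 was shared. ATF3 had 1 and 6, again with 1 shared, and P300 had 2 and 3, with 1 shared and 1 in control alone. Of the whole NASH lists, 29.3% of LXR, 65.7% of ATF3 and 56.7% of P300 sites had no partner in control. The element 1.9 kb upstream (chr4:48043250-48043645), in the window at -1846 bp, was in 5 of the 6 lists, all but the LXR control list. In the NASH lists its LXR site stood above 86.8% of the list and its P300 site above 94.6% by enrichment. The promoter element at -0.3 kb and an intronic element 31.5 kb past the start were in all 3 NASH lists and in no control list. Some of these sites had low reproducibility scores: 720 for ATF3 at the promoter, and 559 for LXR (above 1.82% of its list) and 757 for P300 (above 16.3%) at the intronic element. At a score of at least 830 neither element is in all 3 NASH lists. The window of the intronic element, in intron 7 of 7, held at most 3.10 normalised tags of H3K27ac in any library. The strongest H3K27ac window, at -549 bp, held no listed site, although the ATAC-seq list of the NASH diet alone gave it. The element 2.4 kb upstream (chr4:48042730-48043125), in the window at -2392 bp, was in 4 lists and held the shared LXR site of the gene, an ATF3 site of the NASH list alone and the P300 site of the control list alone. The elements 96.3 and 206.7 kb upstream held ATF3 sites of the NASH list alone, and the farther one lay in a window with no tag in 3 of the 4 libraries.

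**Figure D4:**
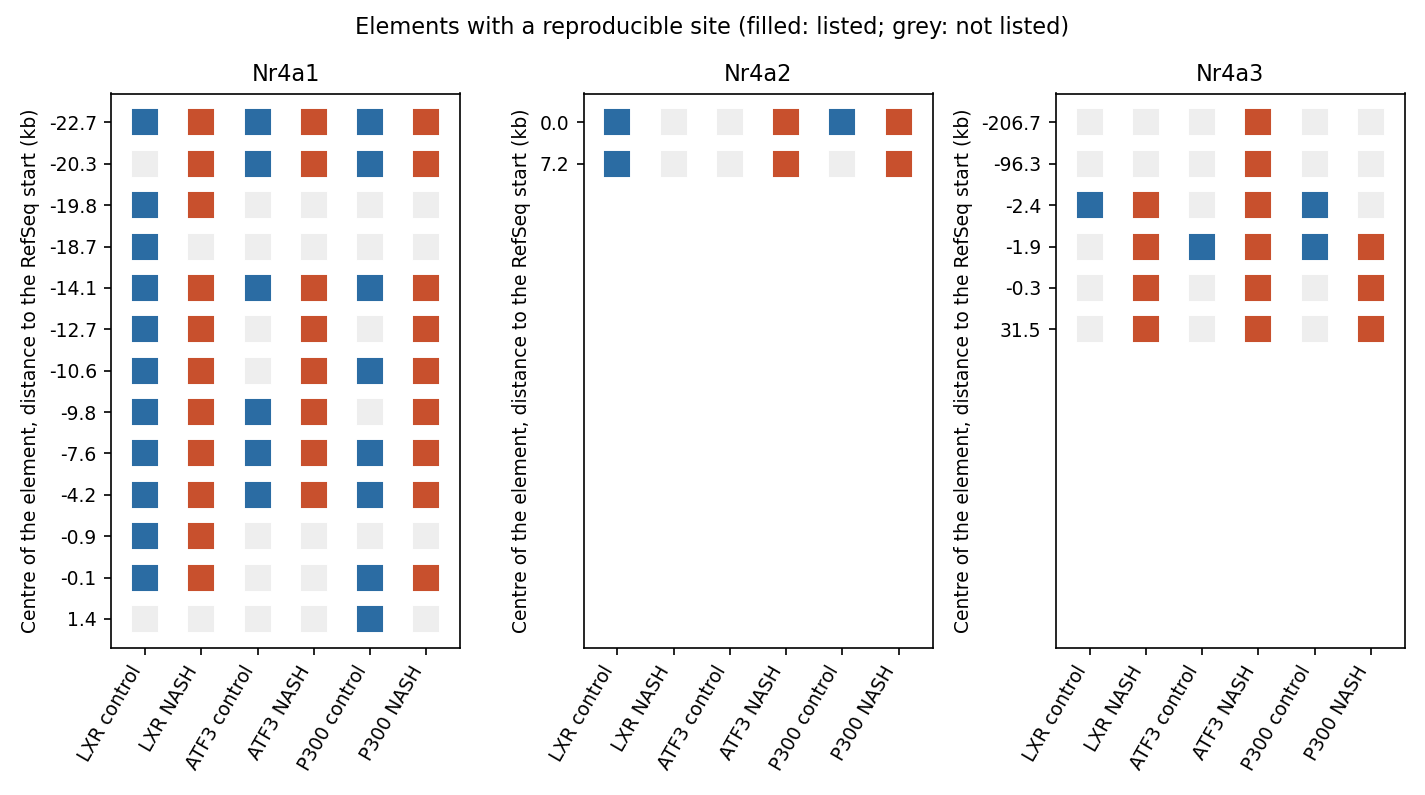
Rows are the elements of each gene, named by the distance of their centre to the RefSeq start in kb, and columns are the control (blue) and NASH (orange) lists of LXR, ATF3 and P300; a filled square means that the list holds a site there and a grey square that it does not. At Nr4a1, 4 of 13 rows are filled throughout, while at Nr4a2 and Nr4a3 the ATF3 column of the control list is empty but for 1 element.

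Other immediate-early genes did not go one way. Of 25 such genes listed, 24 were tested: 3 rose, 5 fell and 16 were not called, where 2.89% of all genes rose and 11.0% fell. Their median relative change was 0.21, against 0 over all genes by construction. With TMM 5 were raised and 2 lowered, where 6.94% and 6.15% of all genes were. Atf3 itself rose, from 397 and 326 normalised tags in control to 552 and 534 in NASH (0.88, limma adjusted p = 0.0033). Klf6, a zinc-finger factor of injury responses, rose from 508 and 651 to 843 and 771 (0.77, 0.00887), and Zfp36, which destabilises inflammatory mRNAs, rose from 725 and 716 to 927 and 853 (0.59, 0.0468). Egr3, like Nr4a1 induced by antigen receptor and growth factor signals, fell from 357 and 356 to 182 and 189 (-0.65, 0.000135), and Klf2, a factor of macrophage quiescence, from 337 and 312 to 168 and 183 (-0.60, 0.000363). Klf4 (-0.30, 0.0223) and Myc (-0.25, 0.0367) passed as lowered but not with TMM (limma adjusted p = 0.193 and 0.319). Within the 24 the relative change ran from -0.65 to 0.88, so Nr4a1 (-0.85) lay below and Nr4a2 (1.44) above every one of them, while Nr4a3 (0.31) lay within their range.

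**Figure D5:**
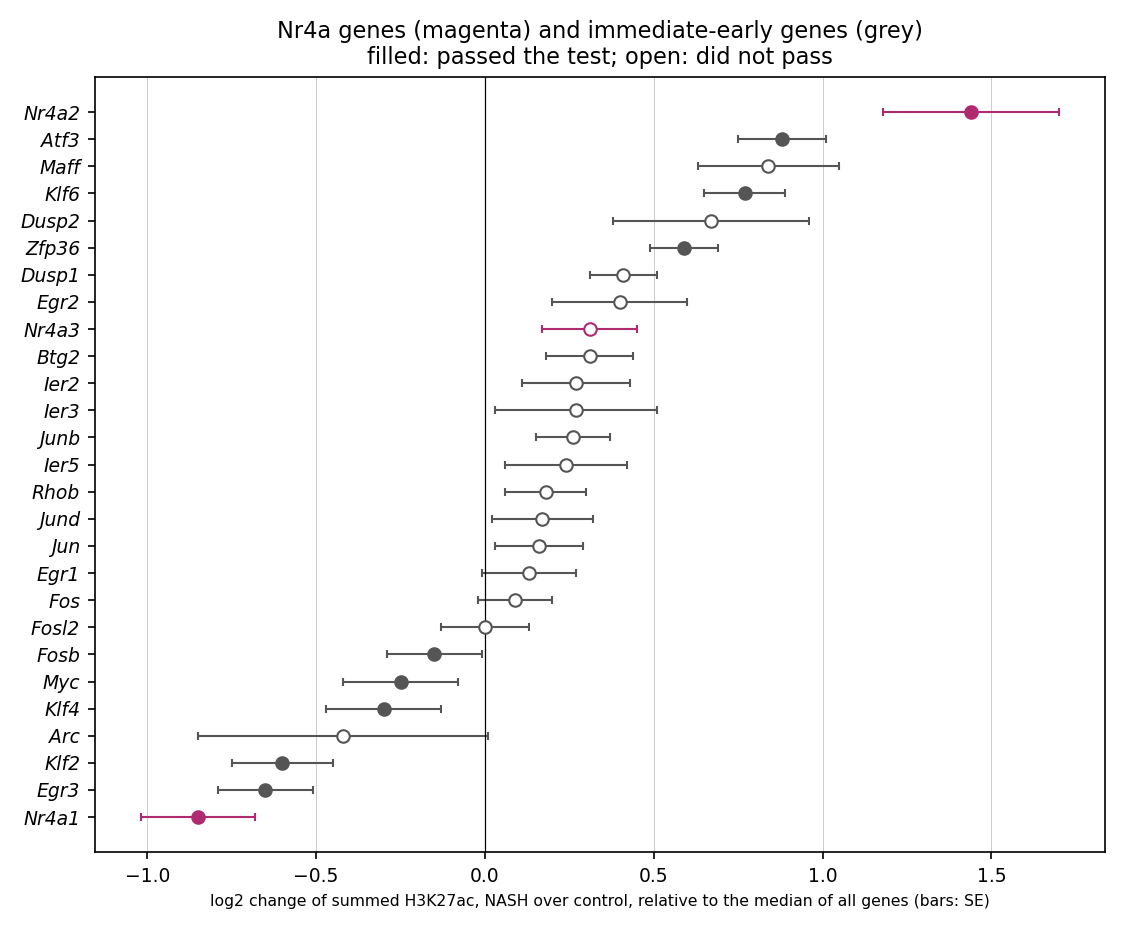
The horizontal axis is the log2 change of summed H3K27ac from control to NASH relative to the median of all genes, bars are the SE of the fit, magenta marks the Nr4a genes and grey the immediate-early genes, and filled points passed the test. Nr4a2 (1.44) and Nr4a1 (-0.85) stand at the ends of the plot and Nr4a3 (0.31) between them.

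Among regulators of Nr4a transcription (CREB and ATF factors, their CRTC coactivators, MEF2 and SRF factors, class IIa deacetylases and NF-κB), 19 of 21 listed genes were tested, with 2 raised, none lowered (main and TMM fits alike) and a median relative change of 0.21. The shares over all genes were 2.89% raised and 11.0% lowered. Mef2c, a member of the MEF2 family that is known to control Nr4a1 in T cells, rose from 7.40 and 12.8 normalised tags to 53.9 and 68.6 (2.81, limma adjusted p = 6.4e-05). Cebpb, a bZIP factor of inflammatory macrophages, rose from 83.4 and 57.9 to 110 and 111 (0.95, limma adjusted p = 0.0492). Creb1, the CRE-binding activator itself, had 257 and 254, then 220 and 201, and did not pass (0.01, limma adjusted p = 0.215).

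Of the partners and corepressors of NR4A proteins, 16 of 17 were tested, with none raised, 3 lowered (2 with TMM) and a median of -0.27. Of all genes, 2.89% were raised and 11.0% lowered, or 6.94% and 6.15% with TMM. Rxra, the retinoid X receptor with which Nr4a1 and Nr4a2 form dimers, fell from 656 and 622 to 350 and 332 (-0.62, limma adjusted p = 3.01e-05). Rxrb fell from 136 and 80.5 to 64.0 and 47.3 (-0.63, 0.0201), and the coactivator gene Ncoa2 from 310 and 225 to 185 and 164 (-0.31, 0.0216), the last not with TMM (0.172). Of the other nuclear receptors, 18 of 24 were tested, with none raised, 7 lowered (6 with TMM) and a median of -0.22. The 4 with the smallest p were the thyroid hormone receptor gene Thra, from 59.1 and 38.9 to 13.3 and 12.0 (-1.56, limma adjusted p = 0.00109), the heme receptor gene Nr1d1, from 277 and 295 to 158 and 174 (-0.50, 0.00151), the mineralocorticoid receptor gene Nr3c2, from 30.6 and 32.7 to 8.53 and 8.84 (-1.47, 0.0036), and the retinoic acid receptor gene Rarg, from 164 and 99.9 to 66.1 and 59.8 (-0.73, 0.00567). Nr4a2 was thus the only one of these 18 receptors and the 3 NR4A genes to be called raised. With 2.89% of all genes raised, none among 18 is not unusual. The LXR genes Nr1h3 (-0.16, limma adjusted p = 0.105) and Nr1h2 (0.17, 0.835) were not called.

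Among genes with a similar total signal, within 1.5 times that of the member, the 3 whose 4 libraries followed each member most closely were found by the Euclidean distance of centred log2 sums. For Nr4a1 they were Micall2 (218 and 185, then 91.7 and 87.4 normalised tags, distance 0.0755), Zhx2 (0.0841) and Ulk1 (0.165), of 1376 genes compared. For Nr4a2 they were Rfx3 (45.4 and 26.5, then 72.5 and 72.3, distance 0.163), Serpinb8 (0.224) and Cdkn1a (0.258), of 2478. For Nr4a3 they were Psma3 (345 and 324, then 330 and 342, distance 0.0225), C87436 (0.0582) and Srebf1 (0.060), of 773. With 4 libraries, many genes can share such a pattern, and the distances describe these libraries only.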

How the data were processed

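Kupffer cell ChIP-seq samples were grouped by diet from their labels; of 27 samples, the 10 inputs and 1 peritoneal macrophage library were not analysed here. The submitters' processing notes name the builds GRCm38 and mm10 and the tools HOMER, Bowtie2 and DESeq2, without versions or roles. The deposited H3K27ac signal is the number of tags in a window scaled to 10000000 per library, per the file headers, in 70300 merged ATAC-seq peaks of both diets. Rescaling with the totals in the headers recovered whole tags (within 0.02) for 100% of values. Each factor list joined both libraries of a diet, per the file headers, and carries the authors' own scores, of enrichment (LXR and P300 only) and of reproducibility (IDR). The only score of the ATF3 lists is unnamed and was taken for the IDR score because it stands in the same column. The time on the diet may differ between libraries.

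Windows were kept by filterByExpr (edgeR 4.0.16; 35947 windows, 11593 genes summed over windows) and tested with limma-trend (limma 3.58.1, R 4.3.3) on log2(value + 1) over the 4 libraries, with Benjamini-Hochberg adjustment over all windows or genes. A raw-count test had been planned. Because the deposited values were scaled, limma was made the main test, and count tests on the recovered tags became alternatives. A gene needed an adjusted p under 0.05 to be called, and a window a log2 change of 1 as well. The script was tested on simulated data. Replicate libraries differed beyond sampling noise (chi-square per degree of freedom 2.36 and 1.93). Alternatives were TMM, edgeR and DESeq2 (1.42.0) on the recovered tags, other pseudocounts, no filter, a replicate block, each library left out, other margins and overlaps, and a stricter IDR. Windows given in full were those called, the one nearest each start and the highest of each gene; from each list up to 4 called genes per direction were named, by adjusted p. The members, gene lists and rules were chosen with earlier results of these data known.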

Additional observations from a re-analysis of the deposited data

How the results depend on the processing

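Across the alternatives, 191 of 229 comparisons of the main results were counted as kept. For a fitted change, that means the same direction and side of the threshold. For a count of windows or sites, it means a count within 1.5 times the main one. Many of these site counts were 0 in both settings, which says little about stability. Without a filter on low values, limma called 0 of 70300 windows and 0 of 16038 genes (10809 windows and 3303 genes at an unadjusted p under 0.05, against 8330 and 3346 with the filter, and edgeR on the filtered windows called 1351 raised and 1124 lowered), so Nr4a1 (sum -0.87, distal -0.95), Nr4a2 (sum 1.41, proximal 1.34, distal 1.83) and all Nr4a windows (0 raised, 0 lowered) lost their calls. Nr4a windows raised numbered 1 with DESeq2 and 1 with a pseudocount of 0.5, and 0 to 2 with a library left out. Nr4a windows lowered numbered 0 with TMM, 1 with edgeR, 0 with DESeq2 and 0 to 4 with a library left out. Leaving out a library moved the relative change of Nr4a2 from 1.10 to 1.77 (sum), 1.08 to 1.61 (proximal) and 1.25 to 2.51 (distal), and that of proximal Nr4a1 from -0.94 to 0.08, a change of sign without control library 1. The cause of these changes was not tested.

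Replicate numbers did not pair the libraries (correlation of their deviations 0.04 over windows and 0.032 over genes, from 2 pairs). With them as a block, 8 Nr4a windows were lowered, and the Nr4a1 (-0.85) and Nr4a2 (1.44) sums stayed called. With an IDR of at most 0.01 (a score of 830), the sites in 1 list alone numbered 1 (control) and 1 (NASH) for ATF3 and 0 (control) for P300 at Nr4a1, 1 (NASH) for ATF3, 1 (control) for LXR and 2 (NASH) for P300 at Nr4a2, where 0 P300 sites were shared, and 3 (NASH) for ATF3 and 1 (NASH) for P300 at Nr4a3. A margin of 20000 bp gave 3 control-only LXR sites at Nr4a1, and one of 0 bp gave 0 control-only P300 sites. With 2 libraries per diet and few tags per window, a p that misses the threshold does not show that a window did not change.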
